A study of Bos taurus with 3 samples.

Results

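The NF-kB response genes and chemokines followed in these cells of the bovine rumen epithelium were 10 of the 19533 genes in the deposited count matrix. The genes were chosen by name with results from these cells already known: the chemokines CCL20, GRO1, CXCL8 and CXCL14, the cytokine IL18, the inhibitors NFKBIA and TNFAIP3, the decoy receptor TNFRSF6B, the kinase MAP3K8 and the transcription factor IRF1. All 10 had a row in the matrix, and their levels and their detection in the same cells were described across cells sorted by 4 gate genes, DLK2, TM4SF1, IGFBP6 and GJA1. Because those results chose the genes, their levels are given as a description without p-values.

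Tissue of the ventral rumen sac was taken from 3 adult lactating Holstein dairy cows, and each animal gave 1 library of the Chromium Single Cell 3' v3 kit. All animals were in 1 condition, so the comparisons are between sets of cells within the same cows. Every tissue was stripped of muscle, minced, treated with EDTA and trypsin and then digested with collagenases, dispase, hyaluronidase and DNase before the libraries were made, and the authors kept only epithelial cells in the files. A cell was placed in a gated set when it held at least 1 UMI (a unique molecular identifier, which marks 1 captured transcript) of that gate gene and 0 UMIs of the other 3. These are rules on counts and not cell types, and cells with more than 1 gate gene or with none of them formed the remaining 2 sets.

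NF-kB is a family of transcription factors that inhibitors of the IkB family hold in the cytoplasm until receptors for microbial products, interleukin 1 or tumor necrosis factor trigger a kinase cascade that degrades the inhibitor. The freed factors switch on chemokines that call in leukocytes, together with their own inhibitors, which end the response. In keratinized epithelia that face microbes the pathway is known as an early part of the barrier response, and many of its targets are also induced quickly by tissue handling.

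The files held 3369, 7401 and 9958 cells of cows 1, 2 and 3, with median depths of 10342, 12051 and 9747 UMIs per cell. Between 5 and 20 barcode sequences were shared by any pair of libraries. The summed level of 18 immediate-early genes (such as JUN) was 60.5, 97.4 and 18.5 UMIs per 10000 in cows 1, 2 and 3. Markers of other cells were rare for most lists: those of T and NK cells, B and plasma cells, fibroblasts, endothelium and smooth muscle had 799, 519, 44, 651 and 263 UMIs in all cells together. The myeloid list had 7848 UMIs, about as many as CCL20, of which CD14 gave 63.9% and PTPRC 38 UMIs. Its level was highest in cow 2 (0.341, 0.416 and 0.248 UMIs per 10000 in cows 1, 2 and 3). On average it was 0.400 in the DLK2 set, 0.355 in the TM4SF1 set, 0.303 in the IGFBP6 set and 0.257 in the GJA1 set. The means of IRF1 had the same order, but the myeloid list kept it only in cow 1. In cow 2 the GJA1 set (0.354) was above the IGFBP6 set (0.348), and in cow 3 the TM4SF1 set (0.303) above the DLK2 set (0.281). The part of the myeloid list in the results was not tested. The keratinocyte list ranged from 126 to 199 UMIs per 10000 over the cows.

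Cow 2 held most of the UMIs of most members. Of all genes together the libraries of cows 1, 2 and 3 held 38912809, 94856658 and 104189434 UMIs. The cells of cow 2 held 94.6% of the 7893 CCL20 UMIs, 91.3% of those of GRO1, 88.0% of CXCL8, 85.6% of TNFAIP3, 85.5% of MAP3K8, 82.1% of IRF1 and 80.7% of NFKBIA. For TNFRSF6B the share was 57.4%. IL18 and CXCL14 did not follow this pattern, with 36.4% and 18.6% of their UMIs in cow 2. The gate gene TM4SF1 had 82.2% of its UMIs in the same cow, and the immediate-early level was also highest there. With 1 library per cow, the animal, its tissue handling and its library cannot be told apart.

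CCL20, a chemokine that draws in immature dendritic cells and T cells bearing CCR6, was found at 0.0529, 0.787 and 0.0214 UMIs per 10000 in cows 1, 2 and 3. NFKBIA, which encodes the inhibitor IkB alpha, was found at 0.576, 3.46 and 0.537. CXCL14, a chemokine made constitutively by many epithelia, was found at 0.495, 0.342 and 1.18. Cow 2 was therefore the highest animal for CCL20 and NFKBIA and the lowest for CXCL14. IL18, a cytokine of the interleukin 1 family that keratinocytes store as a precursor, ranged only from 0.238 to 0.305 UMIs per 10000 over the cows.

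The members also differed in how far their transcripts were spread over cells. The 1% of all cells with the most CCL20 held 84.3% of its UMIs, with up to 261 in a cell. The corresponding shares were 72.5% for GRO1 (a CXC chemokine that attracts neutrophils, also named CXCL1) and 66.6% for TNFRSF6B (a soluble decoy receptor that binds FASL and related ligands). For IL18, CXCL14 and NFKBIA they were 9.04%, 11.3% and 12.8%. CCL20, GRO1 and TNFRSF6B were thus found in few cells (3.68%, 3.98% and 4.23%). IL18, CXCL14 and NFKBIA were found in many (25.6%, 39.8% and 52.9%). Counts per cell did not divide the genes in this way, with up to 58 UMIs of NFKBIA in a cell and up to 53 of TNFRSF6B. CXCL8 (interleukin 8, a neutrophil chemokine) had 117 UMIs in all, too few for most values.

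Among the gated sets, the TM4SF1 set held the most CCL20 in cows 2 and 3. Its CCL20 level was 0.00653, 0.814 and 0.0622 UMIs per 10000 in cows 1, 2 and 3, where the value of cow 1 rests on 2 UMIs and that of cow 3 on 31 UMIs in 2 of 442 cells. In the DLK2 set it was 0.0547, 0.376 and 0.00146, the last from 1 UMI. The order of these 2 sets in cow 1 was the reverse of that in the other cows. In the IGFBP6 set CCL20 had 0, 25 and 74 UMIs, and in the GJA1 set 0, 1 and 0 UMIs, where a count of 0 allows levels of up to 0.00812 and 0.0122 in cows 1 and 3 (3 UMIs, counting error only). GRO1 followed the same order in cow 2, at 0.332 in the TM4SF1 set, 0.235 in the DLK2 set, 0.174 in the IGFBP6 set and 0.0332, from 3 UMIs, in the GJA1 set. GRO1 lies beside its close paralogs CXCL3 and CXCL2 in the RefSeq annotation of ARS-UCD2.0, and how reads that fit more than 1 of them were counted was not tested.

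MAP3K8, a kinase that links NF-kB1 p105 to the ERK cascade, was highest in the TM4SF1 set in cows 1 and 2. Its level there was 0.121, 0.301 and 0.0160 UMIs per 10000 in cows 1, 2 and 3. Against the mean of the other 3 gated sets the log2 ratio was 1.74, 1.66 and 0.28 in cows 1, 2 and 3, or 1.23 ± 0.82 (mean ± SD, n = 3). In cow 3 the value rests on 8 UMIs, and the GJA1 set, with 6 UMIs, was higher. TNFAIP3, the ubiquitin-editing enzyme A20 that shuts the cascade down, was at 0.108, 0.627 and 0.0682 in the TM4SF1 set and at 0.0812, 0.133 and 0.0324 in the GJA1 set. The TM4SF1 set was above the mean of the other gated sets in all 3 cows, at a log2 ratio of 0.76 ± 0.49.

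IRF1, a transcription factor induced by interferon gamma and NF-kB, was compared across the same sets. Its level in the DLK2 set was 0.306, 0.793 and 0.133 UMIs per 10000 in cows 1, 2 and 3. In the TM4SF1 set it was 0.212, 0.769 and 0.0923, in the IGFBP6 set 0.0825, 0.297 and 0.0533, and in the GJA1 set 0.0352, 0.0443 and 0.0162. The order of the 4 sets was the same in each cow. The log2 ratio to the mean of the other 3 gated sets was 1.29 ± 0.19 in the DLK2 set and -2.94 ± 0.75 in the GJA1 set (n = 3). The GJA1 values rest on 13, 4 and 4 UMIs in cows 1, 2 and 3. The immediate-early level moved with these sets, at 75.4 ± 41.1 UMIs per 10000 in the DLK2 set, 72.2 ± 39.9 in the TM4SF1 set, 31.4 ± 22.4 in the IGFBP6 set and 20.8 ± 9.66 in the GJA1 set. In cells at or under the median immediate-early share of their own cow and set, the IRF1 ratio of the DLK2 set was 0.71 ± 0.71.

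NFKBIA had its highest level in the DLK2 set in cow 1 (0.829 UMIs per 10000) and in the TM4SF1 set in cows 2 and 3 (4.06 and 0.682). The IGFBP6 and GJA1 sets were below both of these sets in every cow. In cells low in immediate-early UMIs the log2 ratio of the DLK2 set was 0.16 ± 0.30, against 0.66 ± 0.29 in all cells. CXCL14 went the other way in the DLK2 and IGFBP6 sets but not in the TM4SF1 set, where its log2 ratio was 0.33 ± 0.14. Its level in the DLK2 set was 0.406, 0.231 and 0.680 UMIs per 10000, and in the IGFBP6 set 0.762, 0.386 and 1.31. The DLK2 set was below the mean of the other gated sets in all 3 cows, at a log2 ratio of -0.72 ± 0.18 (n = 3), and this was -0.72 ± 0.35 in cells low in immediate-early UMIs. TNFRSF6B was at 0.0271, 0.0443 and 0.0162 in the GJA1 set, from 10, 4 and 4 UMIs, and its log2 ratio there was -1.09 ± 0.08. IL18 levels in the 4 gated sets of cows 1 and 3 lay between 0.215 and 0.328, and the lowest value in cow 2, 0.0997 in the GJA1 set, rests on 9 UMIs.

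**Figure D1:**
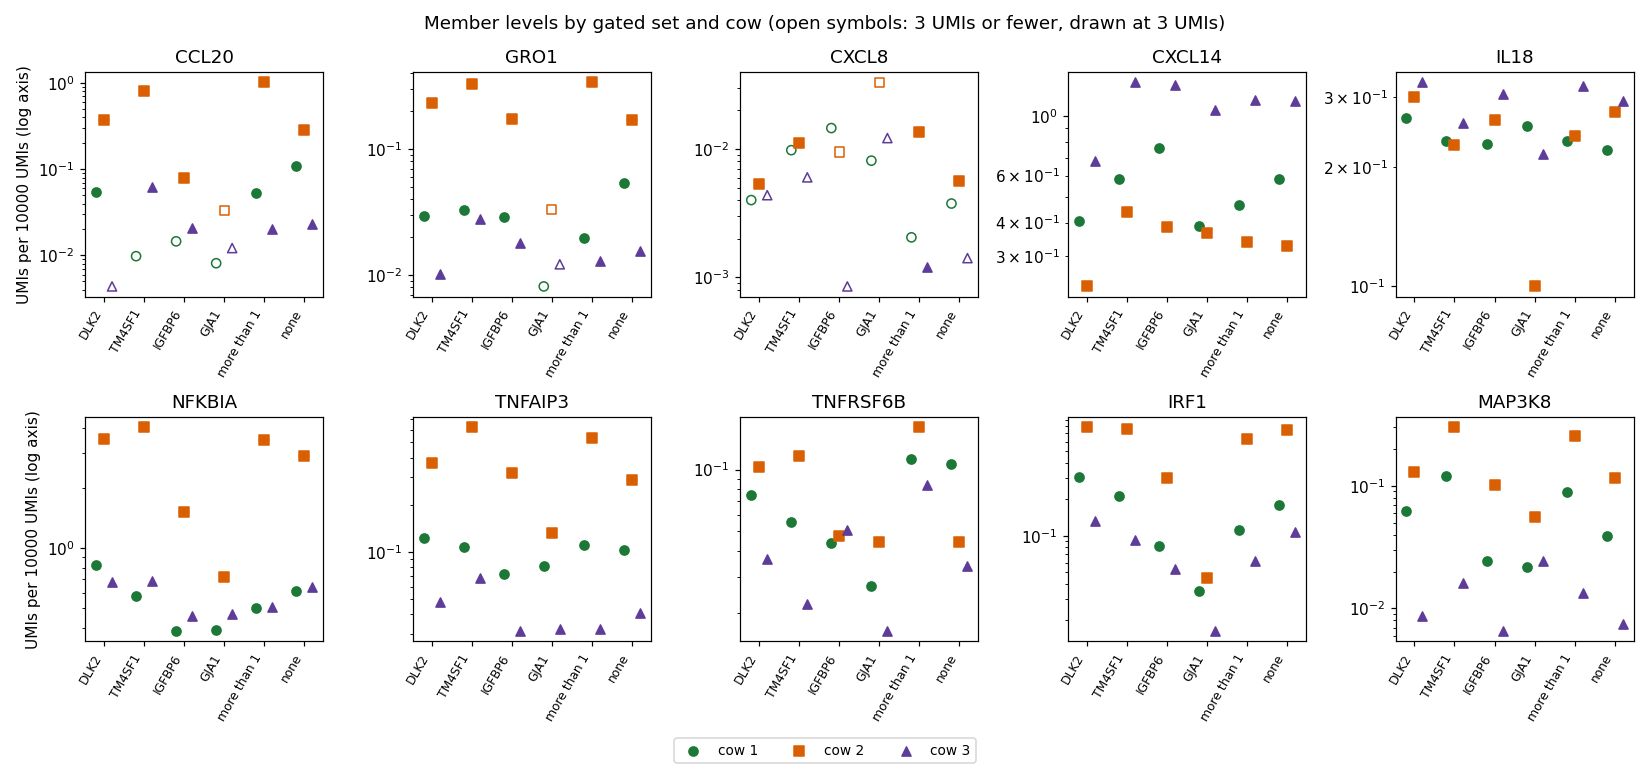
Level of each member (vertical axis, UMIs per 10000 UMIs of the summed cells, log scale) in the 4 gated sets, in cells with more than 1 gate gene and in cells with none (horizontal axis). Each symbol is 1 cow, and open symbols mark sums of 3 UMIs or fewer, drawn at the value of 3 UMIs; cow 2 lies above the other cows in most panels and cow 3 is the highest for CXCL14.

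In the TM4SF1 set 6 of the 10 members (GRO1, CXCL14, NFKBIA, TNFAIP3, IRF1 and MAP3K8) were above the mean of the other 3 gated sets in every cow, where 13.6% of all tested genes were, and none was below it in every cow, where 20.3% of all tested genes were. In the DLK2 set 5 members (IL18, NFKBIA, TNFAIP3, TNFRSF6B and IRF1) were above it in every cow, beside 38.9% of all tested genes, and 1 (CXCL14) was below, beside 21.2%. In the IGFBP6 set CXCL14 was above in every cow, beside 15.3% of all tested genes, and 5 members (CCL20, NFKBIA, TNFAIP3, IRF1 and MAP3K8) were below, beside 16.9%. In the GJA1 set 7 members (CCL20, GRO1, CXCL8, NFKBIA, TNFAIP3, TNFRSF6B and IRF1) were below in every cow, beside 35.5% of all tested genes. Since the choice of genes used these cells, nothing is read from these counts.

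In the fit of all 18 sums, which tested 9 members after CXCL8 failed the filter on low counts, 7 members passed as higher in the TM4SF1 set, where 3.23% of all tested genes did. In the DLK2 set 2 members passed as higher and 1 as lower, beside 17.3% and 17.2% of all tested genes. In the IGFBP6 set 1 passed as higher, beside 1.09% (0.723% of all tested genes passed as lower), and in the GJA1 set 5 passed as lower, beside 12.4%. Without cow 2 the count in the TM4SF1 set was 1 in place of 7, beside 1.76% of all tested genes. That in the GJA1 set was 3 in place of 5, beside 9.17%. The GJA1 count was 1 in cells low in immediate-early UMIs, beside 5.97%, and the TM4SF1 count 2 where sets shared cells, beside 1.21%. These cells also chose the genes, so nothing is read from these counts either.

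The gated sets leave out the many cells that held more than 1 gate gene, so each gate gene was also read by itself over all cells. In cells with a TM4SF1 UMI the MAP3K8 level was 0.106, 0.280 and 0.0221 UMIs per 10000 in cows 1, 2 and 3, against 0.0463, 0.114 and 0.00712 in cells without one. Cells with TM4SF1 were higher in each cow, by a log2 ratio of 1.37 ± 0.23 (mean ± SD, n = 3). For CCL20 the level with TM4SF1 was 0.0546, 1.02 and 0.0452, against 0.0521, 0.323 and 0.0158 without it. The log2 ratio of CCL20 was 0.07 in cow 1 and 1.66 and 1.52 in cows 2 and 3. In cow 1 the share of thinned cells with CCL20 went the other way, at 0.420% with TM4SF1 and 0.607% without it. TNFAIP3 had log2 ratios of 0.23, 0.90 and 0.38, while its share of thinned cells in cow 1 was 5.04% with TM4SF1 and 5.29% without. IL18 had a lower level in cells with TM4SF1 in each cow (log2 ratio -0.20 ± 0.02). Its share of thinned cells in cow 1 went the other way, at 12.0% with TM4SF1 and 10.9% without.

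Of the 9 members with more than 3 UMIs on both sides in every cow, 4 had a higher level with TM4SF1 in every cow (CXCL14, TNFAIP3, MAP3K8 and, by 0.07 in cow 1, CCL20), beside 20.4% of all tested genes, and 1 was lower (IL18), beside 34.7%. With DLK2, 5 were higher (CCL20, IL18, NFKBIA, TNFRSF6B and IRF1), beside 35.6%, and CXCL14 was lower, beside 23.9%, at a log2 ratio of -0.59 ± 0.22. In thinned cells the gate genes were again read after thinning. The share of thinned cells with CCL20 was lower with DLK2 in cow 2 (5.81% against 6.68%) and cow 3 (0.129% against 0.221%, from few cells with CCL20). That of IL18 was 12.2% with DLK2 and 12.3% without it in cow 2. With IGFBP6, 3 were higher (CXCL14, IL18 and TNFRSF6B), beside 16.5%, and 3 lower (NFKBIA, TNFAIP3 and IRF1), beside 26.5%. Among thinned cells of cow 2, the shares with IL18 (11.2% against 12.5%) and TNFRSF6B (2.81% against 3.41%) were lower with IGFBP6. Of 8 members with GJA1 values, 4 were lower (GRO1, NFKBIA, TNFRSF6B and IRF1), beside 43.8%, and none was higher, beside 23.6%. The share of thinned cells with TNFRSF6B in cow 1 was higher with GJA1 (2.81% against 2.46%). IRF1 had the lowest mean ratio with GJA1, at -1.73 ± 0.41, while CCL20 in cow 2 had the same level with and without GJA1 (0.789 and 0.787).

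**Figure D2:**
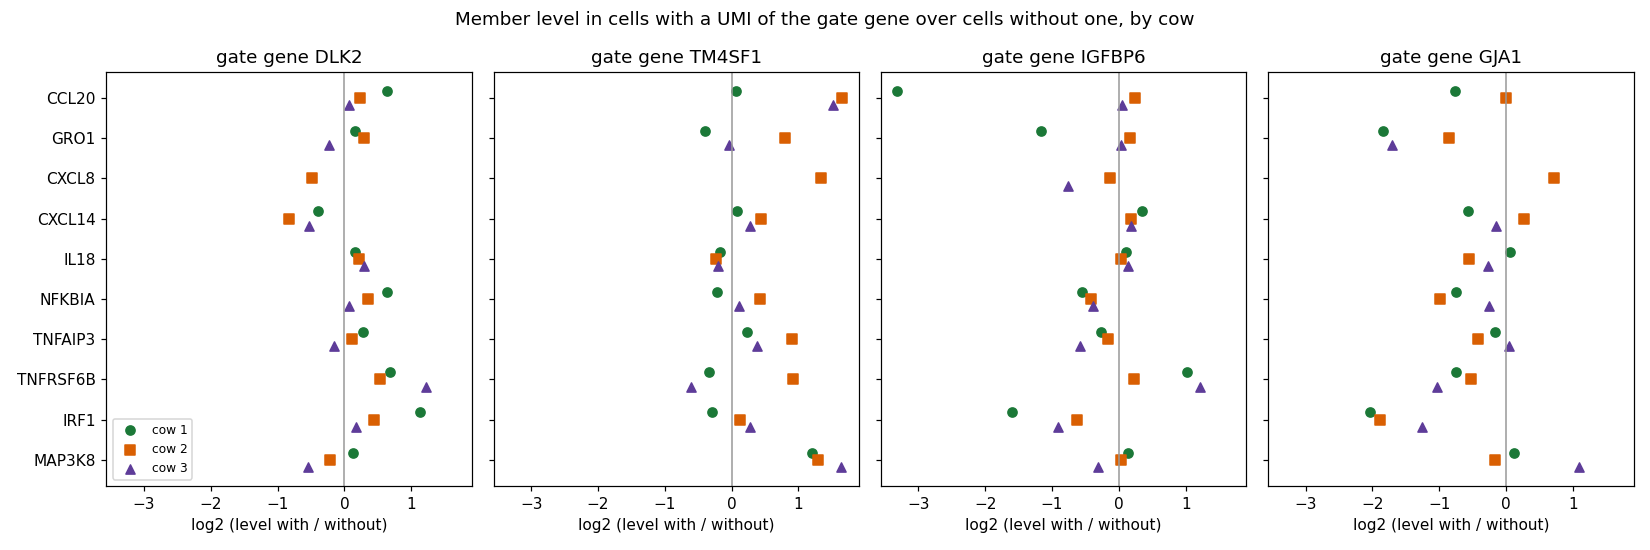
Log2 ratio of the level of each member in cells with at least 1 UMI of the gate gene to its level in cells without one (horizontal axis), by member (vertical axis) and gate gene (panels), with 1 symbol per cow where both sides held more than 3 UMIs. MAP3K8 lies to the right of 0 with TM4SF1 in all 3 cows and IRF1 to the left of 0 with GJA1 in all 3 cows.

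Within cow 2, CCL20 was compared between cells that differed by a TM4SF1 UMI. The 65 cells with GJA1 alone held 0.0111 UMIs per 10000, from 1 UMI, while the 265 cells with GJA1 and TM4SF1 held 1.13. Cells with DLK2 alone were at 0.376 and those with DLK2 and TM4SF1 at 1.15. Cells with IGFBP6 alone were at 0.0790 and those with IGFBP6 and TM4SF1 at 0.981. Cells with no gate gene were at 0.284 and those with TM4SF1 alone at 0.814. In each of these 4 pairs of cow 2 the cells with TM4SF1 added were the higher. The other cows were mixed and rest on few UMIs. In cow 1 CCL20 was at 0.0547 with DLK2 alone and 0.123 with DLK2 and TM4SF1, but at 0.108 with no gate gene (86 UMIs) and 0.00653 with TM4SF1 alone (2 UMIs). In cow 3 it was at 0.0231 with no gate gene and 0.0622 with TM4SF1 alone, but at 0.0210 with IGFBP6 alone (74 UMIs) and 0.0143 with IGFBP6 and TM4SF1 (12 UMIs). IRF1 in cow 2 was also higher with TM4SF1 added in each of the 4 pairs, at 0.0443 and 0.154 for GJA1, 0.793 and 1.00 for DLK2, 0.297 and 0.557 for IGFBP6, and 0.742 and 0.769 for cells with no other gate gene. Cells with GJA1 and TM4SF1 stayed below cells with TM4SF1 alone in IRF1 (0.154 against 0.769) and not in CCL20 (1.13 against 0.814). The other cows were mixed for IRF1 too. In cow 3 it was lower with TM4SF1 alone than with no gate gene (0.0923 against 0.108). Over all cells its log2 ratio with a TM4SF1 UMI was -0.30, 0.13 and 0.28 in cows 1, 2 and 3.

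Deeper cells show more genes at once, so detection was compared after thinning each cell to 5000 UMIs, which left 2783, 7173 and 9254 cells. In cow 2 the share of cells with CCL20 was 3.74%, 6.41%, 10.5% and 17.1% at 0, 1, 2 to 3 and 4 or more TM4SF1 UMIs. MAP3K8 was found in 6.58%, 10.5%, 14.0% and 20.8% of these cells and TNFAIP3 in 13.5%, 19.9%, 25.3% and 31.5%. All 3 shares were higher in each bin with more TM4SF1 in cow 2. In cow 1 MAP3K8 was found in 2.43%, 5.36%, 8.0% and 20.6%, the last bin with 34 cells, while CCL20 had no UMI in the 125 and 34 cells of the upper bins, which allows up to 2.40% and 8.82% of cells with a UMI at this depth and sets no limit on cells expressing the gene. In cow 3 MAP3K8 was found in 0.392%, 0.736% and 3.40% of cells at 0, 1 and 2 to 3 UMIs. IL18 was found in 13.1%, 12.4%, 10.6% and 9.38% of cells over the bins of cow 2.

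Free RNA from broken cells also gives UMIs, and no cell type that should lack these genes was in the files, so the shares of the TM4SF1 set are given beside those of the GJA1 set. In thinned cells of cow 2, NFKBIA was found in 68.4% of the TM4SF1 set and 27.6% of the GJA1 set, and IRF1 in 28.5% and 1.72%. In the deposited counts, at median depths of 13137 and 15262 UMIs per cell, the shares were 85.1% and 43.1% for NFKBIA and 46.2% and 4.62% for IRF1. CXCL14 was found in 16.5% and 15.5% of the same thinned sets. The GJA1 shares come from only 58 thinned cells, or 65 cells in the deposited counts, where IRF1 had 4 UMIs. Within this library the sets therefore differed far more in IRF1 than in CXCL14.

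**Figure D3:**
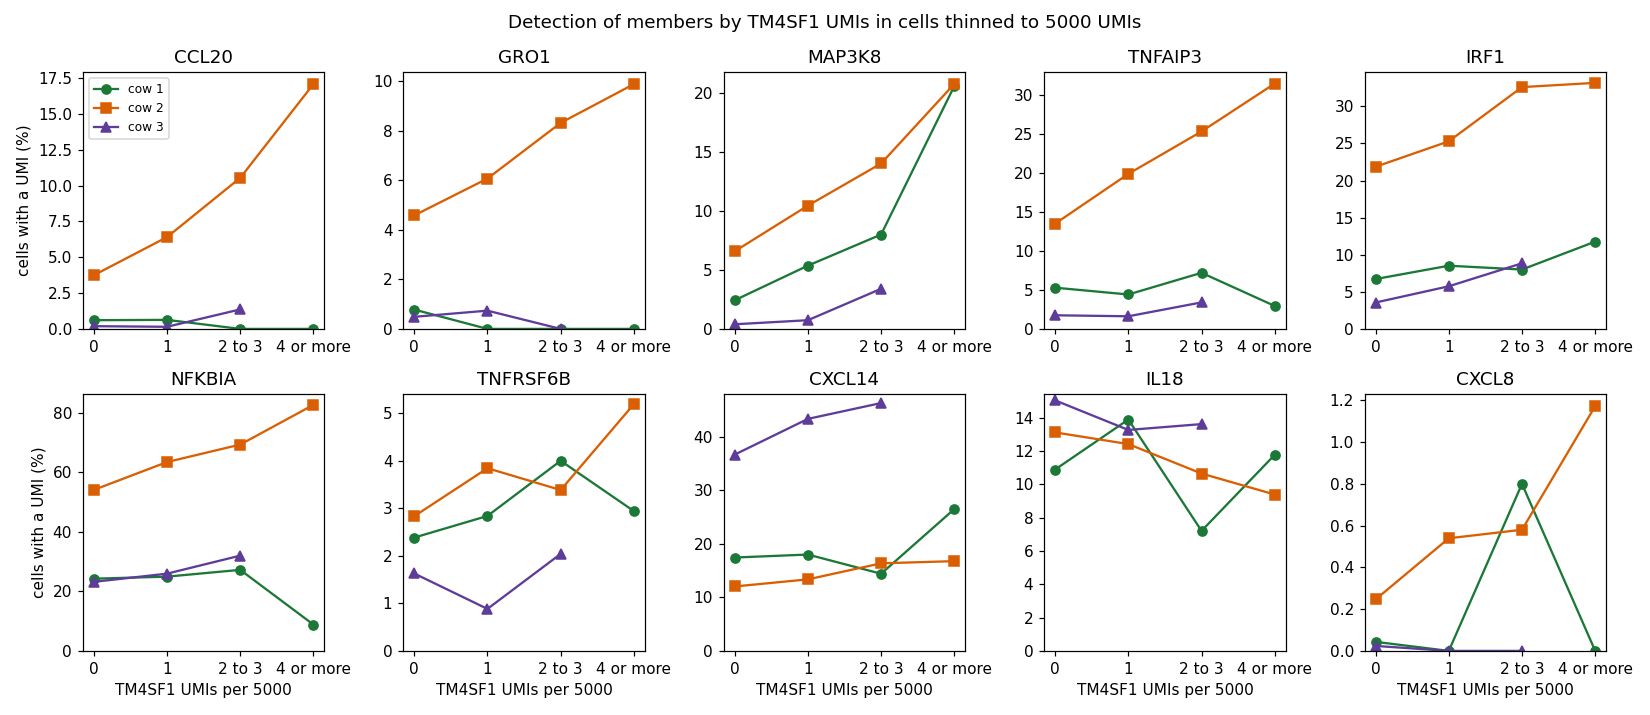
Share of cells with at least 1 UMI of each member (vertical axis, percent) by the number of TM4SF1 UMIs (horizontal axis) in cells thinned to 5000 UMIs, with 1 line per cow and bins of fewer than 20 cells left out. In cow 2 the share for CCL20 goes from 3.74% to 17.1% and that for MAP3K8 from 6.58% to 20.8%.

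Co-detection was measured as the number of thinned cells with both genes over the number expected if the genes fell into cells independently, and a value was kept where at least 5 such cells were expected. A single ratio shares its library, its depth and its cells with the others, so these are descriptions. Of the 45 pairs of members, 16 had a value in every cow, and 6 were above 1 in every cow, beside 18.7% of the pairs formed by a member with any other gene found in at least 5% of thinned cells. TNFAIP3 and IRF1 were found together in 22, 489 and 15 cells of cows 1, 2 and 3 where 10.3, 324 and 6.29 were expected, a ratio of 2.01 ± 0.45 (mean ± SD, n = 3). NFKBIA and IRF1 had ratios of 1.35, 1.37 and 1.63, and NFKBIA and TNFAIP3 of 1.30, 1.34 and 1.61. In all 3 cows these ratios were above the median ratio of NFKBIA with other genes found in at least 5% of thinned cells, which was 1.03, 1.01 and 0.993. The remaining pairs above 1 in every cow were NFKBIA and TNFRSF6B (1.28 ± 0.10), CXCL14 and MAP3K8 (1.36 ± 0.12) and IL18 and NFKBIA (1.06 ± 0.04). CXCL14 and TNFAIP3 (0.86 ± 0.12) and IL18 and TNFRSF6B (0.79 ± 0.08) were below 1 in every cow.

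Most pairs of the rarer chemokines had a value only in cow 2. GRO1 also had a value in 1 other cow with NFKBIA (1.33 and 1.72 over the 2 cows), CXCL14 (1.07 and 1.08) and IL18 (0.286 and 1.00), and CCL20 with CXCL14 (0.706 and 1.08). In cow 2 CCL20 and TNFRSF6B were in the same cell 68 times where 15.2 were expected, a ratio of 4.47. CCL20 and GRO1 were together in 112 cells where 26.9 were expected, a ratio of 4.17, and GRO1 and TNFRSF6B in 54 where 14.0 were expected, a ratio of 3.87. MAP3K8 was found with GRO1 at 2.32 and with CCL20 at 2.22. Ratios were also taken in that cow with other genes found in at least 5% of thinned cells. Their 95th percentile was 1.40 for CCL20, 1.35 for GRO1, 1.56 for TNFRSF6B and 1.25 for MAP3K8, below each of these 5 values. CCL20, GRO1, TNFRSF6B and MAP3K8 were themselves in 2.57%, 2.53%, 2.36% and 4.29% of thinned cells. Ratios with partners as rare as these were not summarized, so the percentiles are of commoner genes and no like measure for these pairs. CCL20 and IL18 were together less than expected (41 cells against 56.3, a ratio of 0.728), above the 5th percentile of 0.712 for CCL20 with the same commoner genes. CXCL14 and TNFRSF6B had a ratio of 0.537 in cow 2, but of 1.31 and 0.882 in cows 1 and 3. In cow 2, 34 of 39 member pairs were above 1, beside 52.8% of the pairs of a member with another gene found in at least 5% of thinned cells.

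Some of these pairs could also be counted inside gated sets of cow 2, though not CCL20 or GRO1 with TNFRSF6B, and cells of a set still differ in how many UMIs of the gate gene they hold. Within the TM4SF1 set CCL20 and GRO1 were together in 20 cells where 6.29 were expected (ratio 3.18), and GRO1 and MAP3K8 in 23 where 11.7 were expected (1.97). Within the DLK2 set CCL20 and TNFAIP3 had a ratio of 2.20 and CCL20 and IRF1 of 1.79. CCL20 and IRF1 had a ratio of 0.973 in the TM4SF1 set. No member pair with CCL20 reached 5 expected cells in the IGFBP6 or GJA1 sets. In cells of cow 2 low in immediate-early UMIs the ratio of CCL20 and GRO1 was 5.24 and that of CCL20 and TNFRSF6B 5.74.

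**Figure D4:**
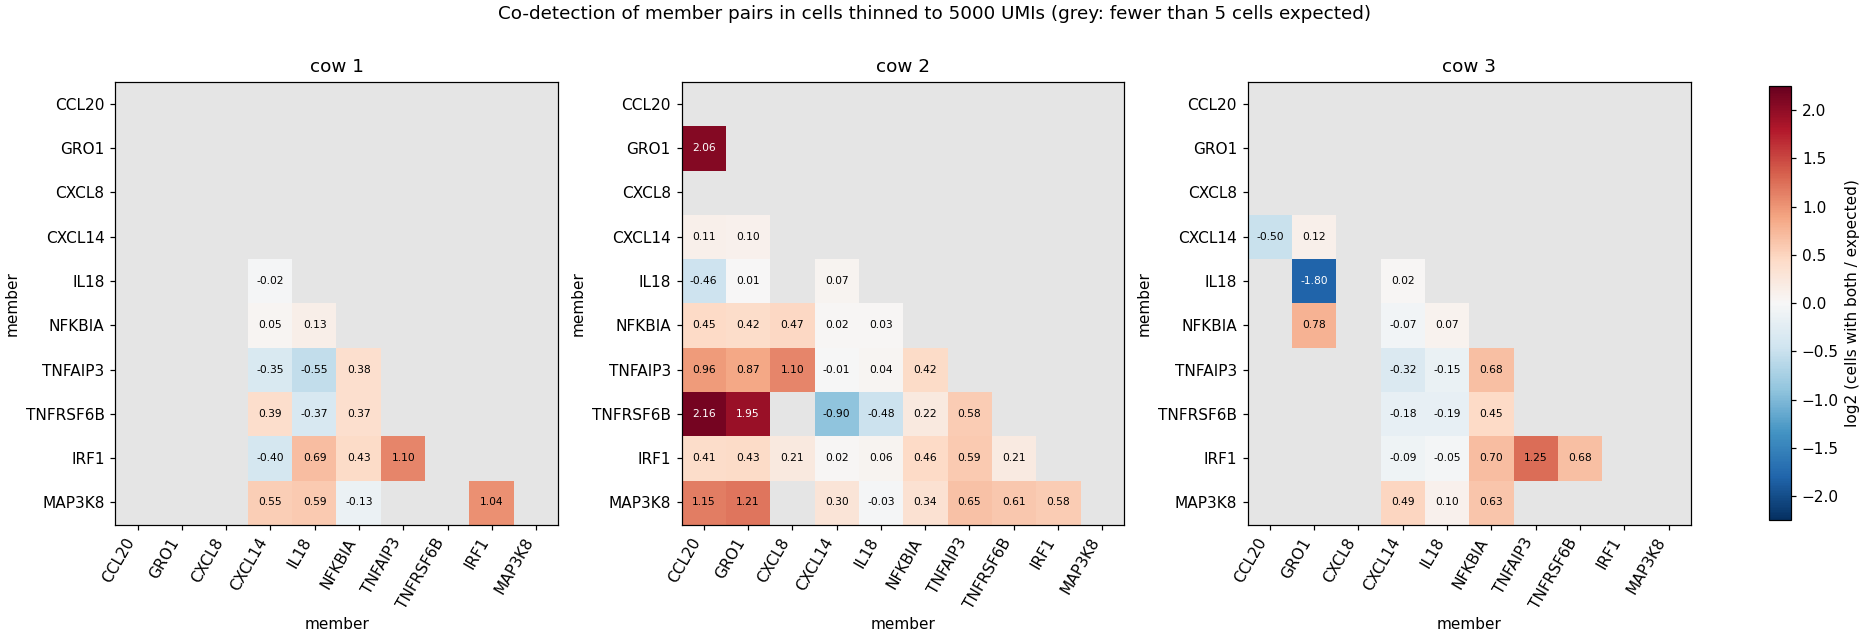
Log2 of the number of thinned cells with both members over the number expected, for each pair of members (both axes) and each cow (panels), where grey marks pairs with fewer than 5 expected cells. In cow 2 the pairs among CCL20, GRO1 and TNFRSF6B stand for ratios of 3.87 to 4.47, and most pairs with CCL20 or GRO1 are grey in the other cows.

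On average 0.721, 1.55 and 0.841 members were found per thinned cell in cows 1, 2 and 3. At least 4 members were present in 0.539%, 6.98% and 0.249% of the cells. Cow 2 stood above the others on both measures. Within cow 2 the mean was 1.79 in the TM4SF1 set, 1.38 in the DLK2 set, 1.04 in the IGFBP6 set and 0.586 in the GJA1 set.

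Cells with at least 10 CCL20 UMIs, a threshold set after the counts were seen, numbered 8, 174 and 5 in cows 1, 2 and 3 and held 78.2%, 82.2% and 79.4% of the CCL20 UMIs of each cow. In cow 2, 89.1% of them had a TM4SF1 UMI against 58.4% of the other cells, but they were deeper (median 18059.5 UMIs against 11895). After thinning the shares were 79.9% and 42.5%. In cows 1 and 3 a TM4SF1 UMI was found, before thinning, in 2 of the 8 and 2 of the 5 cells. The immediate-early share in cow 2 was 1.11% in these cells and 1.07% in the others.

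In these 174 cells of cow 2, TNFRSF6B was at 1.29 UMIs per 10000 against 0.0892 in the other cells, a log2 ratio of 3.85. GRO1 was at 2.89 against 0.211 (3.77) and CXCL8 at 0.107 against 0.00753 (3.83). The feedback inhibitors were less far apart, with NFKBIA at 7.30 against 3.32 (1.14) and TNFAIP3 at 1.38 against 0.464 (1.57), as was MAP3K8 at 0.543 against 0.214 (1.34). IRF1 (0.29), CXCL14 (0.31) and IL18 (-0.53) had log2 ratios near 0 or below. In cow 2 the CCL20-rich cells were therefore rich in GRO1, CXCL8 and TNFRSF6B to a degree that IRF1, CXCL14 and IL18 did not share. The CXCL8 value is uncertain, since all cells of cow 2 together held 103 of its UMIs. These ratios were not computed for genes other than the members or in the other cows.

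For the 5 members found in at least 5% of thinned cells, the genes with the most similar counts were sought among 5462 genes, as the mean over 3 cows of the Pearson correlation of log counts across the thinned cells of a cow, which share a library. NFKBIA was nearest to JUNB (mean r 0.31), ZFP36 (0.28) and JUN (0.27). IRF1 was nearest to JUNB (0.29), ZFP36 (0.28) and ATF3 (0.26). TNFAIP3 was nearest to NFKBIA (0.12), ZFP36 (0.11) and ATF3 (0.11). JUN, JUNB and ATF3 are immediate-early transcription factors, and ZFP36 destabilizes cytokine mRNAs. For NFKBIA the correlation with JUNB was 0.22, 0.50 and 0.21 in cows 1, 2 and 3. For CXCL14 the nearest were MT2A, FGFBP1 and RBP4, at 0.09 to 0.13. For IL18 no gene passed 0.06, and in sparse counts such values are not a finding.

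Other genes of the pathway, 127 in all, were listed as subunits, inhibitors, kinases and adaptors, receptors, ligands, other chemokines, other targets, and interferon factors and targets. Of these, 125 were in the matrix and 95 had enough counts to be tested by the edgeR quasi-likelihood test with cow as a block. In the DLK2 set 25 rose and 7 fell against the mean of the other 3 gated sets, or 26.3% and 7.37% beside 17.3% and 17.2% of all tested genes, with a median log2 fold change of 0.16 over the 95 and 0.03 over all tested genes. In the TM4SF1 set 14 rose, or 14.7% beside 3.23%, with a median of 0.14 against 0.01, and without cow 2 only 4 rose, or 4.35% beside 1.76%. In the IGFBP6 set 1 rose, or 1.05% beside 1.09%, with a median of -0.04 against 0.02. In the GJA1 set 3 rose and 21 fell, or 3.16% and 22.1% beside 13.5% and 12.4%, with a median of -0.31 against -0.03.

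By role, 4 of 6 tested other chemokines, 8 of 13 other targets and 4 of 27 kinases and adaptors rose in the DLK2 set. So did 2 of 5 subunits, 3 of 13 receptors and 4 of 14 interferon factors and targets, beside 17.3% of all tested genes. Of 9 inhibitors and 8 ligands, 0 rose. Those that fell were 1 of the same chemokines, 2 of the targets, 1 of the kinases and adaptors, 2 receptors and 1 ligand, beside 17.2%. In the TM4SF1 set 3 of 9 genes listed as inhibitors rose (BCL3, NFKBIZ and ZC3H12A), as did 3 of 8 ligands (IL6, IL1A and CSF1), beside 3.23% of all tested genes. The list name is only a label, and whether these genes inhibit the pathway here was not tested. In the GJA1 set 3 of 5 subunits fell (RELB, NFKB1 and RELA), as did 3 of 6 other chemokines and 5 of 13 other targets. So did 5 of 14 interferon factors and targets, 2 of 27 kinases and adaptors, 2 of 8 ligands and 1 of 13 receptors. The share of all tested genes that fell was 12.4%. Of 9 inhibitors 0 fell, while 2 of 13 receptors and 1 of 13 other targets rose, beside 13.5%. RELB also rose in the DLK2 set (log2 fold change 0.71, adjusted p = 0.0208), together with NFKB2, its usual partner (0.46, adjusted p = 0.0102), by edgeR's quasi-likelihood test, with p-values adjusted by the Benjamini-Hochberg method. The genes named by role in this paragraph were chosen after their values were seen. The immediate-early level moved with these sets, as given above, with DLK2 highest in cow 1 and TM4SF1 highest in cows 2 and 3. In cells low in immediate-early UMIs 14 of 83 tested pathway genes rose in the DLK2 set, or 16.9% beside 14.1% of all tested genes, and 7 of 83 fell in the GJA1 set, or 8.43% beside 5.97%. In the TM4SF1 set 7 of 83 rose in these cells, or 8.43% beside 2.59%. In these 3 comparisons the gap between the pathway and all tested genes was smaller than in all cells. These sums hold fewer cells (33 in place of 65 in the GJA1 set of cow 2), and the shares of all tested genes that passed were lower too. The cut was made within each cow and set, so it does not bring the sets to a common immediate-early level. What made the gap smaller was not tested.

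In the DLK2 set CXCL3, a neutrophil chemokine, was at 0.562, 1.92 and 0.373 UMIs per 10000 in cows 1, 2 and 3, against 0.0433, 0.421 and 0.0811 in the GJA1 set. Its log2 fold change was 1.41 in the DLK2 set (adjusted p = 2.36e-08, edgeR quasi-likelihood test, higher in 3 of 3 cows) and 0.91 in cells low in immediate-early UMIs, where the adjusted p was 0.0581. LCN2, which binds bacterial siderophores, was at 0.0534, 0.0577 and 0.170 in the DLK2 set and rose by 1.91 (adjusted p = 1.30e-07), and it passed under every alternative tried. CXCL2 rose by 1.84 (adjusted p = 0.00142, and 0.311 in cells low in immediate-early UMIs) and the acute-phase gene SAA3 by 2.35 (adjusted p = 0.0110), which without cow 1 had an adjusted p of 0.128, and 0.0716 by DESeq2, and did not pass under 4 of 12 alternatives. The chemokine CCL2 (log2 fold change -3.92, from 90 UMIs in all sums), the flagellin receptor TLR5 (-1.52), the urokinase gene PLAU (-1.23) and the receptor-associated kinase IRAK1 (-0.52) fell. Without cow 3 the adjusted p was 0.986 for CCL2, 0.237 for PLAU and 0.0712 for IRAK1, and without cow 2 it was 0.0971 for CCL2.

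In the TM4SF1 set GADD45B, a stress gene induced by NF-kB, was at 0.951, 2.35 and 0.873 UMIs per 10000 against 0.184, 0.443 and 0.134 in the GJA1 set. It rose by 1.27 on the log2 scale (adjusted p = 4.15e-07) and the call held without each cow. IL6 was at 0.0392, 0.283 and 0.0100 and rose by 2.43 (adjusted p = 5.08e-05), but the adjusted p was 0.316 without cow 2. CCL2 rose by 3.09 (adjusted p = 0.00200), with 0.139 without cow 2. IL1A rose by 1.15 (adjusted p = 0.0273), with 0.331 without cow 2 and 0.0998 without cow 3, and it did not pass under 8 of 12 alternatives.

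In the GJA1 set TLR5 was at 0.0758, 0.0332 and 0.0852 UMIs per 10000, against 0.00934, 0.00770 and 0.0160 in the DLK2 set. The GJA1 value of cow 2 is that of 3 UMIs. TLR5 rose by 2.31 (adjusted p = 4.88e-06) and passed under every alternative tried. IL17RA rose by 0.48 (adjusted p = 5.33e-04), with 0.115 without cow 3, and SOD2 by 0.26 (adjusted p = 0.0246), with 0.0851 without cow 1 and 0.169 without cow 3, and SOD2 did not pass under 7 of 12 alternatives. GADD45B (-1.98, adjusted p = 1.16e-08), CXCL3 (-1.94, 2.22e-06), IL6 (-3.46, 0.00788) and IL1A (-1.78, 0.0383) fell. IL6 had 0.00541, 0 and 0 UMIs per 10000 in the GJA1 set, so its fitted value, like that of CCL2, depends on the prior count and is no bound. The adjusted p of IL6 was 0.0909 without cow 2, that of IL1A was 0.184 without cow 2 and 0.159 without cow 3, and in cells low in immediate-early UMIs CXCL3 kept its size (-1.92, adjusted p = 0.0794), IL1A was at -0.40 (adjusted p = 0.880) and IL6 at -5.79 (adjusted p = 0.104). Under 12 alternatives IL1A did not pass in 8 and IL6 in 4. In the IGFBP6 set PSMB8, an immunoproteasome subunit, rose by 0.49 (adjusted p = 0.00812), with 0.132 without cow 3 and 0.0585 in cells low in immediate-early UMIs. Over all cells the ligands TNF, IL1B and IL1A had 279, 32 and 659 UMIs.

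**Figure D5:**
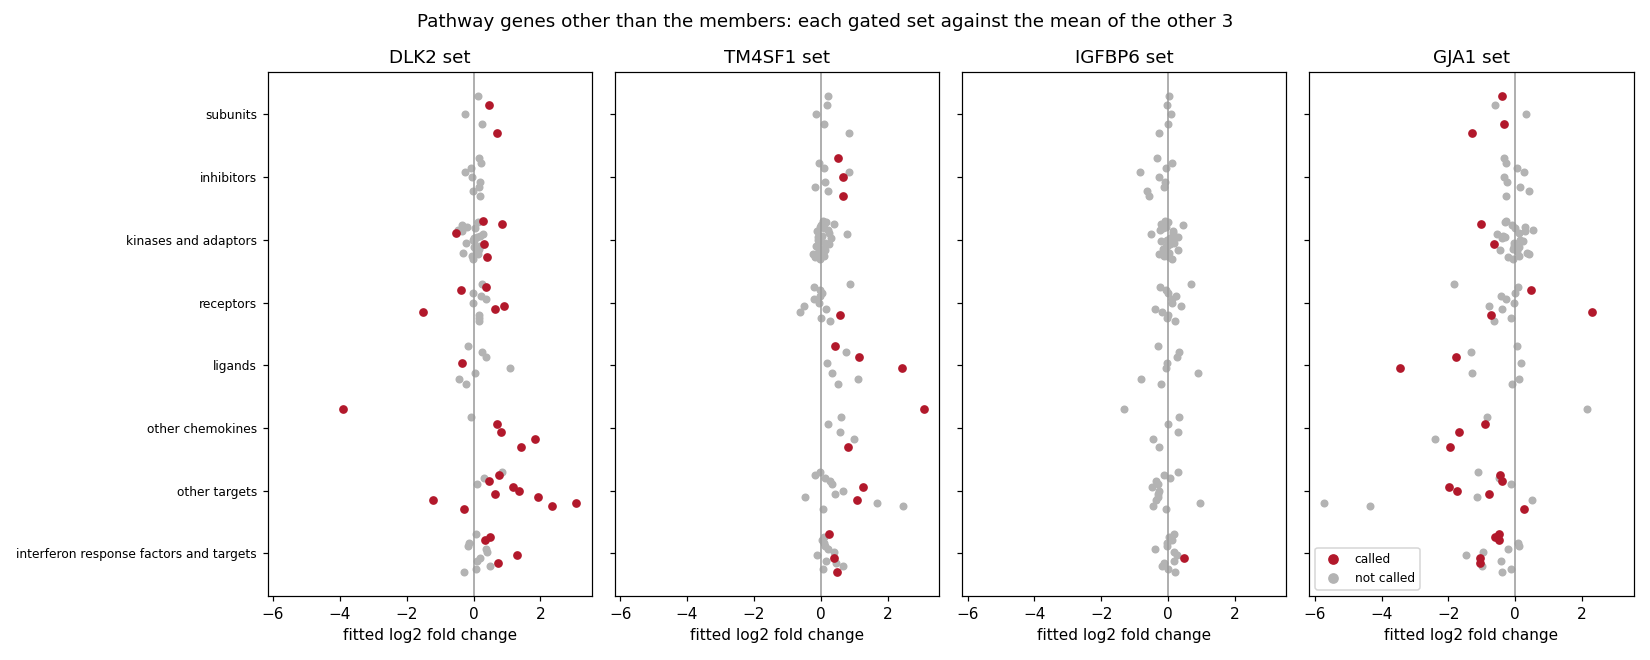
Fitted log2 fold change (horizontal axis) of each tested pathway gene that is not a member, by list (vertical axis), in each gated set against the mean of the other 3 (panels), with genes that passed the test in red. In the DLK2 panel 25 genes passed to the right of 0 and 7 to the left, and in the GJA1 panel 3 to the right and 21 to the left.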

How the data were processed

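Single-cell libraries from the rumen epithelium of 3 cows were used as deposited. The authors aligned and counted the reads with Cell Ranger 3.1.0 (per the submitters' processing notes) against the Ensembl annotation of a build written ARS-USD1.2 in the study's methods, looked for doublets with DoubletFinder, removed cells other than epithelium, and deposited raw UMI counts and a table of natural log values made from them. The deposited natural log values followed from the deposited counts in all 19533 rows (tolerance 1e-06) and served only to pair gene names with rows of the count matrix. No further doublet caller was run. The sample of a cell was read from the suffix of its barcode. No sequences are printed, since no genome of this build was used here.

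Counts were summed per cow and set, giving 18 sums. Genes that passed the filter on low counts (10648 per contrast) were tested with the edgeR 4.0.16 quasi-likelihood test in R 4.3.3, with TMM scaling and cow as a block, each gated set against the mean of the other 3 on the log scale. To pass, a gene needed a log2 fold change past 0.25 and a Benjamini-Hochberg adjusted p below 0.05. The step was tested on simulated counts. The sets come from the same animals, and sums of the same cow deviated together (mean correlation of deviations 0.56 to 0.64, against -0.33 between cows), so the cow pairs them. Sets of cells from 1 cow are not separate samples. With cow as a block, the p-values measure how far differences between sets vary over the 3 cows. That spread is pooled over all 18 sums and leaves out the spread of levels between animals. Each set was gated on counts of the same cells, so the gate gene itself was left out.

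Levels are UMIs per 10000 UMIs of a sum, and log2 ratios were kept above 3 UMIs on both sides. Intervals and floors cover counting error only. Cells were thinned to 5000 UMIs for shares and co-detection, which left out 586, 228 and 704 cells. The totals were 38912809, 94856658 and 104189434 UMIs in cows 1, 2 and 3. Named pathway genes were, per contrast and direction, the 4 with the largest fold change among those that passed and moved the same way in every cow. The members and the gene lists were chosen with earlier results of these data known. Alternatives were DESeq2 1.42.0, RLE scaling, no low-count filter, no block, each cow left out, other gates and folds, cells low in immediate-early or mitochondrial UMIs, and other thinning.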

Additional observations from a re-analysis of the deposited data

How the results depend on the processing

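The pathway genes with the largest folds kept their direction under each alternative run for them, while the genes named by role were not followed across alternatives and CCL2 was tested under fewer of them. Counts of members here are of members above or below the mean of the other sets in every cow, not of calls. Of the 278 member ratios between sets recomputed, 22 turned the sign of their mean, in 8 combinations of member and set, such as TNFAIP3 in the DLK2 set (0.22 to -0.12 with at least 2 UMIs of the gate gene and -0.02 in cells low in immediate-early UMIs), CCL20 in the DLK2 set (0.32 to -0.18 and -1.95, 1 cow each) and TNFRSF6B in the TM4SF1 set (0.13 to -0.34 with overlapping sets). Leaving out the cow block lowered the numbers of genes that passed. Pathway genes then numbered 4 higher and 1 lower in the DLK2 set, 0 higher in the TM4SF1 and IGFBP6 sets and 3 lower in the GJA1 set. All genes numbered 371 and 401 in the DLK2 set, 0 and 0 in the TM4SF1 and IGFBP6 sets, and 543 and 346 in the GJA1 set. Leaving out each cow in turn gave 4 to 15 pathway genes higher in the TM4SF1 set (lowest without cow 2), 0 to 1 higher and 0 to 1 lower in the IGFBP6 set, and 1 to 3 higher in the GJA1 set. It gave 1 to 2 members below in every remaining cow in the DLK2 set, 1 to 2 above in the IGFBP6 set and 0 to 1 below in the TM4SF1 set. Without cows 1, 2 and 3 in turn, 11 of 21, 7 of 16 and 9 of 17 pairs were above 1 in every remaining cow. The main count was 6 of 16 pairs in all 3 cows. Of all genes, leaving out cows 1, 2 and 3 in turn called 67, 27 and 41 higher and 44, 49 and 49 lower in the IGFBP6 set, against 116 and 77, without cow 2 the TM4SF1 set had 187 and 5 against 344 and 28, and without cow 3 it had 12 lower and the GJA1 set 824 lower against 1322. DESeq2 called 8 pathway genes higher in the TM4SF1 set, and 60 of all genes higher and 70 lower in the IGFBP6 set, a share of 46.2% higher against 60.1%. Without the low-count filter 5 pathway genes were lower in the IGFBP6 set and 5 higher in the GJA1 set, and 233 and 151 of all genes passed in the IGFBP6 set. In cells low in immediate-early UMIs 14 pathway genes were higher in the DLK2 set, 7 in the TM4SF1 set and 0 in the IGFBP6 set, 7 were lower in the GJA1 set, 2 members were above and 2 below in every cow in the DLK2 set, and of all genes 10 and 6 passed in the IGFBP6 set and 780 and 578 in the GJA1 set. With overlapping sets 4, 2 and 9 pathway genes were higher in the TM4SF1, IGFBP6 and GJA1 sets, 2 members were below in every cow in the DLK2 set and 3 above in the IGFBP6 set, and of all genes 139 and 0 passed in the TM4SF1 set, 57 and 40 in the IGFBP6 set and 2015 and 2032 in the GJA1 set. At a log2 fold change past 0.36 the TM4SF1 set had 18 lower. Gates read in thinned cells gave 1 pathway gene lower in the IGFBP6 set and 9 higher in the GJA1 set, with 2 members below in every cow in the DLK2 set, 0 above in the IGFBP6 set and 4 below in the GJA1 set. With at most 20% mitochondrial UMIs 9 pathway genes were higher in the TM4SF1 set and 2 members were above in every cow in the IGFBP6 set. With at least 2 UMIs of the gate gene 3 members were above in every cow in the TM4SF1 set and 2 in the IGFBP6 set. Without thinning 16 of 26 pairs were above 1 in every cow. With thinning to 3000 UMIs the count was 4 of 12, and in cells low in immediate-early UMIs 4 of 9. The cause of these shifts was not tested. The limits are 3 animals, 1 library each, and counts of CCL20, GRO1 and CXCL8 that lie mostly in cow 2.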
